A study of Mus musculus with 12 samples.

Results

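The 6 genes of the CCN family, Ccn1 to Ccn6, were examined in left ventricular RNA of mice aged 16 weeks, in 6 WT libraries and 6 cmGch1 KO libraries. The members were found by gene symbol in the GENCODE M21 annotation of the mouse build GRCm38, with their older names Cyr61, Ctgf, Nov, Wisp1, Wisp2 and Wisp3 accepted, and all 6 were among the 26921 genes counted. Both groups carried floxed alleles of Gch1, which encodes the required enzyme for synthesis of tetrahydrobiopterin. WT mice were Gch1 flox/flox, and cmGch1 KO mice were Gch1 flox/flox with α-MHC-Cre+/-, a Cre recombinase driven by the α-myosin heavy chain promoter of cardiomyocytes. Mice with the Cre but no floxed allele were not analysed here, so the presence of Cre and the loss of Gch1 cannot be told apart in these libraries. The study used RNA sequencing to look for altered transcription that could bear on metabolism and function of hearts whose cardiomyocytes lack Gch1, and the same 2 groups were compared here for the CCN genes.

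CCN proteins are secreted, cysteine-rich matricellular proteins. They do not build the extracellular matrix but bind it, together with integrins, proteoglycans and growth factors, and so alter adhesion, migration and the action of ligands such as transforming growth factor-β. A typical member has a signal peptide followed by an insulin-like growth factor binding protein (IGFBP)-type module, a von Willebrand factor type C module, a thrombospondin type 1 repeat and a C-terminal cystine knot, which CCN5 lacks. Ccn1 and Ccn2 are classical targets of YAP and TAZ, the coactivators held in check by the Hippo kinases, and both respond to stretch, to serum response factor and to transforming growth factor-β. In the heart CCN2, the former connective tissue growth factor, is known as a marker of fibrotic and hypertrophic remodelling, and CCN5 has been described as opposing it.

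What the members share can be seen in their coding sequence. The stretches below encode the start of the IGFBP-type module and are shown because they hold the cysteine pattern that marks the family. They are read 5′ to 3′ from the GENCODE M21 transcripts, with the codons for cysteine in capitals.
Ccn1: ggcTGCggcTGCTGTaaggtcTGC
Ccn2: ggcTGCggcTGCTGCcgcgtcTGC
Ccn3: ggcTGCtccTGCTGTccggtgTGC
Ccn4: ggcTGTgaaTGCTGTaagataTGT
Ccn5: ggcTGTggcTGCTGTcgagtgTGT
Ccn6: ggcTGTggaTGCTGCaaagtcTGT
The stretches were found by searching the translated sequences for a glycine followed by 4 cysteines at a fixed spacing, over 8 codons. The likeness in these positions is thus set by the search. All 6 members held the pattern, 1 time each. The stretch began at codon 49 of Ccn1, 52 of Ccn2, 54 of Ccn3, 72 of Ccn4, 49 of Ccn5 and 71 of Ccn6. Coding sequences ran from 348 to 379 codons except in Ccn5, which had 251, and held 37 to 40 cysteine codons except in Ccn5, which had 29. Over whole coding sequences the pair most alike was Ccn2 and Ccn3, with 62.1% of aligned columns identical, and the pair least alike was Ccn1 and Ccn5, with 39.8%. The longest run of identical bases shared by any pair, at any positions, was 18 bases, in Ccn1 and Ccn2.

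Of the libraries as a whole, totals lay between 19921398 and 37917806 counts. Gch1, in counts scaled to library size (cpm), averaged 10.7 ± 0.974 over the WT and 5.48 ± 0.855 over the cmGch1 KO libraries (SD, n = 6 each), with no overlap. cmGch1 KO replicates 2 and 3 stood apart from the other 10 libraries. They had 86.7 and 99.1 cpm of Xist and a Y-linked count (Ddx3y, Eif2s3y, Kdm5d and Uty summed) of 0, whereas each of the other 10 had at most 0.234 cpm of Xist and at least 4003 Y-linked counts. They also had the fewest counts in total, and mitochondrial genes took 14.9% and 16.1% of their counts against 18.3% to 22.9% elsewhere. No WT library had high Xist, so this trait was unbalanced between the genotypes. The paper states that both sexes were used, and the labels do not give the sex of each mouse. Fold changes and differences in cpm of the members, and the comparisons of Ccn2 with other members, were therefore also computed without these 2 libraries. Levels per kilobase, shares and ratios within the family and correlations were not, and they include both. Cardiomyocyte markers Myh6, Tnnt2, Tnni3, Actc1, Myl2, Ryr2, Ttn and Pln summed to 56605 to 60486 cpm in WT and 51463 to 57258 cpm in cmGch1 KO libraries.

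At this depth 4 of the 6 members, Ccn1, Ccn2, Ccn3 and Ccn5, passed the filter of the main test, a cpm over 3 in at least 6 libraries. Ccn4 exceeded 3 cpm in 4 libraries and Ccn6 in 0, so both were described from a fit of all genes with at least 1 count and from an exact permutation test. Values in cpm here are scaled by the trimmed mean of M values (TMM). Of the 4 tested members 1, Ccn2, was called at a false discovery rate (FDR) under 0.05, in a table in which 126 of 11225 genes (1.12%) were called, 76 of them (0.677%) higher and 50 (0.445%) lower in cmGch1 KO hearts. Scaling by library size alone gave 116 higher and 36 lower. The plot of the members by library shows the 12 values of each gene.

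**Figure D1:**
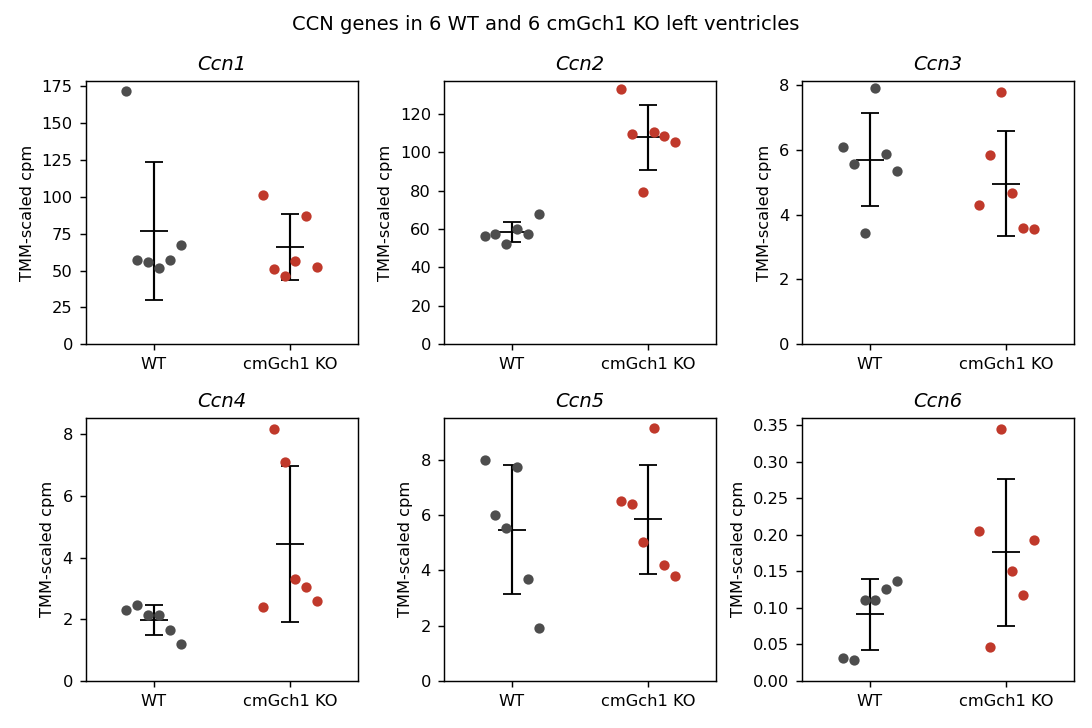
TMM-scaled cpm (vertical axes, each from 0) of the 6 CCN genes in the left ventricle of 6 WT (grey) and 6 cmGch1 KO (red) mice; points are libraries in order of replicate number and bars are mean ± SD. For Ccn2 the cmGch1 KO libraries (79.4 to 133 cpm) all lie above the WT libraries (52.4 to 67.6 cpm), and for the other 5 genes the groups overlap.

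Ccn2 (ENSMUSG00000019997) lies on the plus strand of chromosome 10 at chr10:24595442-24598683 and has 3 annotated transcripts. Its level in WT hearts ran from 52.4 cpm over a median of 57.3 cpm to 67.6 cpm, and in cmGch1 KO hearts from 79.4 cpm over a median of 109 cpm to 133 cpm. Every cmGch1 KO library was higher than every WT library, a separation that 210 of the 11225 tested genes (1.87%) showed in either direction and 120 (1.07%) showed upward. The lowest of the cmGch1 KO libraries was replicate 3, which has the most Xist, and the highest was replicate 1.

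Mean Ccn2 was 58.5 ± 5.10 cpm over the WT and 108 ± 17.1 cpm over the cmGch1 KO libraries (SD, n = 6 each). The log2 fold change was 0.88 (standard error 0.10), a ratio of 1.84 with a 95% interval of 1.60 to 2.12, and it passed the threshold (edgeR's quasi-likelihood test, Benjamini-Hochberg adjusted p = 6.88e-04). It stood 8th among all tested genes by p-value and 23rd by size of rise. An exact permutation test of the difference of 49.3 cpm gave p = 0.00216, two-sided, the smallest p that 6 libraries against 6 allow. Counts of Ccn2 were between 1415 and 3823 in each library, so that counting error was small beside the spread between mice.

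Ccn2 kept its call in each of the 12 fits that left out 1 library, with log2 fold changes from 0.81 to 0.95, and in each of 11 other settings, with log2 fold changes from 0.82 to 0.97. Without the 2 libraries of high Xist the other 4 cmGch1 KO libraries had 114 ± 12.6 cpm (SD, n = 4) and the log2 fold change was 0.97. The antisense gene Gm15270 overlaps Ccn2 on the minus strand, and the strand setting of the counting is not given in the sources used here. Gm15270 itself averaged 1.54 ± 0.332 and 1.60 ± 0.275 cpm (SD, n = 6 each) in the respective groups, far below Ccn2.

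Ccn1 (ENSMUSG00000028195), the other classical YAP and TAZ target of the family and an immediate early gene, lies on the minus strand at chr3:145646976-145649981. In WT hearts it ran from 51.6 cpm over a median of 56.9 cpm to 171 cpm, and in cmGch1 KO hearts from 46.6 cpm over a median of 54.4 cpm to 101 cpm. The medians were close and the ranges overlapped. WT replicate 1 alone was at 171 cpm, with the next WT library at 67.6 cpm, and among cmGch1 KO libraries replicates 1 and 5 were the highest at 101 cpm and 86.9 cpm.

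Mean Ccn1 was 76.7 ± 46.7 cpm for WT against 65.7 ± 22.5 cpm for cmGch1 KO mice (SD, n = 6 each). The log2 fold change of -0.22 (standard error 0.30) did not pass the threshold (edgeR's quasi-likelihood test, adjusted p = 0.874), and its 95% interval as a ratio ran from 0.569 to 1.29. Its sign rested on WT replicate 1, without which the log2 fold change was 0.19 (edgeR's quasi-likelihood test, adjusted p = 0.783). Without the 2 libraries of high Xist the other 4 cmGch1 KO libraries had 74.2 ± 23.6 cpm (SD, n = 4). The interval of Ccn1 does not reach the lower bound of 1.60 of Ccn2.

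Ccn3 (ENSMUSG00000037362), the former nephroblastoma overexpressed gene, whose protein is often described as acting against CCN2, lies at chr15:54745702-54754039 on the plus strand. It ran from 3.44 cpm over a median of 5.72 cpm to 7.89 cpm in WT and from 3.56 cpm over a median of 4.47 cpm to 7.79 cpm in cmGch1 KO hearts. The groups overlapped over nearly their whole ranges. The log2 fold change was -0.22 (standard error 0.21; edgeR's quasi-likelihood test, adjusted p = 0.805), with a 95% interval of the ratio from 0.644 to 1.15. cmGch1 KO replicates 2 and 3 held the highest Ccn3 of their group, and without them the other 4 had 4.02 ± 0.541 cpm (SD, n = 4) against 5.70 ± 1.43 cpm (SD, n = 6) in WT (exact permutation test, two-sided, p = 0.0619).

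Ccn5 (ENSMUSG00000027656), the member without the C-terminal module, lies at chr2:163820861-163833146 on the plus strand. Its level ran from 1.92 cpm over a median of 5.76 cpm to 8.0 cpm in WT and from 3.78 cpm over a median of 5.71 cpm to 9.16 cpm in cmGch1 KO hearts. Medians nearly coincided, and WT replicate 6 was the lowest of all 12 libraries. The log2 fold change was 0.08 (standard error 0.30; edgeR's quasi-likelihood test, adjusted p = 0.964) with a 95% interval of the ratio from 0.708 to 1.58, so a change within these bounds was not detectable. The 4 cmGch1 KO libraries without high Xist had 5.91 ± 2.47 cpm (SD, n = 4). Its sign turned when WT replicate 5, WT replicate 6 or cmGch1 KO replicate 4 was left out, to -0.01, -0.08 and -0.10 on the log2 scale.

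Ccn4 (ENSMUSG00000005124), known first as a gene induced by WNT1, lies at chr15:66891320-66923201 on the plus strand and has 6 annotated transcripts. It ran from 1.19 cpm over a median of 2.14 cpm to 2.46 cpm in WT and from 2.41 cpm over a median of 3.17 cpm to 8.19 cpm in cmGch1 KO hearts. Of the 6 cmGch1 KO libraries 5 lay above the highest WT library, and the sixth, replicate 1, lay just under it. Replicates 2 and 3 of cmGch1 KO, the libraries of high Xist, had 8.19 and 7.10 cpm, above each of the other 10 libraries (1.19 to 3.30 cpm). Counts were 26 to 177 per library.

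Mean Ccn4 was 1.98 ± 0.475 cpm for WT against 4.44 ± 2.53 cpm for cmGch1 KO mice (SD, n = 6 each), which differ by 2.46 cpm (exact permutation test, two-sided, p = 0.00433, not adjusted for the number of genes). In the fit of all 24643 genes with a count, in which 141 (0.572%) were called, the log2 fold change was 1.12 (standard error 0.29) and missed the threshold (edgeR's quasi-likelihood test, adjusted p = 0.12). Its unadjusted p there was 0.00112 by the same test, and 9.21% of these genes had one under 0.05. Without the 2 libraries of high Xist the other 4 cmGch1 KO libraries had 2.84 ± 0.407 cpm (SD, n = 4), a difference of 0.858 cpm from WT (exact permutation test, two-sided, p = 0.0143), and the log2 fold change was 0.50 (edgeR's quasi-likelihood test, adjusted p = 0.743). The call depended on the setting. The Wald test of DESeq2 gave an adjusted p of 0.0204 with a log2 fold change of 1.15. Leaving out cmGch1 KO replicate 1 gave 1.25 (edgeR's quasi-likelihood test, adjusted p = 0.0487), the only 1 of 12 such fits under the threshold. With sex-linked expression as a covariate the log2 fold change was 0.51 (edgeR's quasi-likelihood test, adjusted p = 0.517). What part the high Xist of these 2 libraries, their depth or their lower mitochondrial share had in the level of Ccn4 was not tested.

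Ccn6 (ENSMUSG00000062074) lies at chr10:39150970-39163794 on the minus strand and overlaps Tube1. It was near the limit of detection, with 1 to 4 counts per WT library and 1 to 8 counts per cmGch1 KO library. In sum there were 16 counts in WT and 29 counts in cmGch1 KO hearts. In 6 of the 12 libraries the count was 3 or less, which is the limit that a count of 0 allows, so no fold change is given and a difference was not detectable at this depth (exact permutation test of cpm, two-sided, p = 0.0736). Without cmGch1 KO replicate 2, where 1 count was found, the exact permutation test gave p = 0.00866 on these few counts. It was the only 1 of 12 such tests under 0.05, with p up to 0.167 in the others.

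Levels between genes were compared per kilobase of exon. In WT hearts the mean order was Ccn1 at 38 ± 23.1, Ccn2 at 20.4 ± 1.78, Ccn5 at 2.85 ± 1.22, Ccn3 at 1.99 ± 0.498, Ccn4 at 0.356 ± 0.0854 and Ccn6 at 0.0641 ± 0.034 cpm per kb (SD, n = 6). Of these neighbours only Ccn5 and Ccn3 overlapped, and Ccn1 lay above Ccn2 in all 6 WT libraries. In cmGch1 KO hearts Ccn2 came first at 37.7 ± 5.97, followed by Ccn1 at 32.6 ± 11.1, Ccn5 at 3.04 ± 1.02, Ccn3 at 1.73 ± 0.565, Ccn4 at 0.798 ± 0.454 and Ccn6 at 0.124 ± 0.0707 cpm per kb (SD, n = 6). There the ranges of Ccn2 and Ccn1 overlapped, with Ccn2 higher in 4 of 6 libraries, as did those of Ccn5 and Ccn3 and those of Ccn3 and Ccn4. With the longest transcript as length, mean Ccn2 was 23.5 in WT and 43.3 cpm per kb in cmGch1 KO hearts. Overlaps and counts of libraries were taken with the union of exons only, and those of Ccn1 and Ccn2 depend on that length. Ccn1 and Ccn2 thus made up most of the family's transcripts in both groups.

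**Figure D2:**
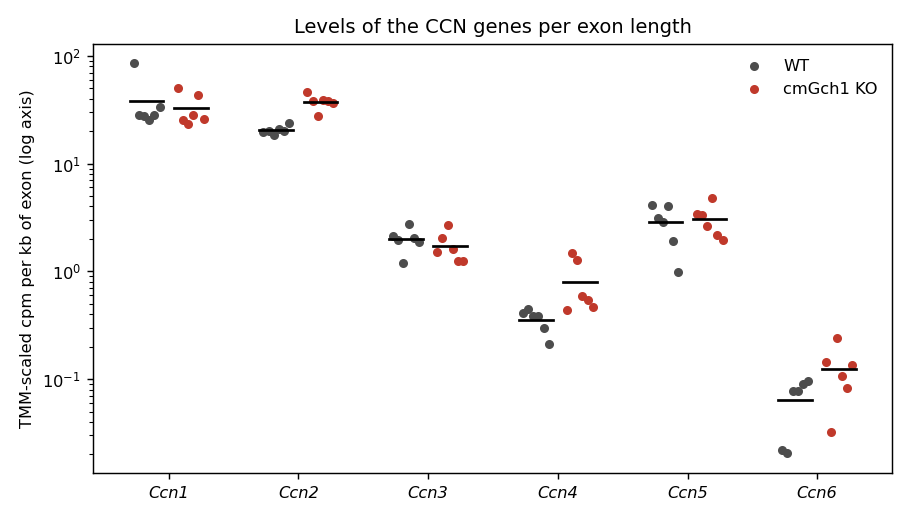
Level of each CCN gene per exon length (TMM-scaled cpm per kb, vertical log axis) in 6 WT (grey) and 6 cmGch1 KO (red) libraries, with black lines at the group means. Ccn1 and Ccn2 lie about an order of magnitude above Ccn3 and Ccn5, and Ccn2 moved from 20.4 to 37.7 cpm per kb, past the mean of Ccn1.

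As a share of the summed per-kilobase level of the family, Ccn2 made up 34.6 ± 8.34% for WT and 50.1 ± 4.60% for cmGch1 KO mice (SD, n = 6 each). Ccn1 made up 56.7 ± 9.99% and 42.1 ± 6.17% (SD, n = 6 each). The ratio of Ccn2 to Ccn1 per kilobase was 0.232 to 0.817 in WT and 0.880 to 1.51 in cmGch1 KO libraries, with no overlap. The lowest ratio belonged to WT replicate 1, the library with the most Ccn1.

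The log2 ratio of Ccn2 to each of 4 other members within a library was then compared between genotypes. Ccn2 was taken as the reference after it was called in these same libraries. The p-values below carry that choice and serve as a description. They come from exact permutation tests, two-sided, and are adjusted over these 4 comparisons. Against Ccn1 the genotype effect of Ccn2 was larger by 1.0 on the log2 scale (exact permutation test, p = 0.00216, adjusted p = 0.00866). Against Ccn3 it was larger by 1.09 (exact permutation test, p = 0.00866, adjusted p = 0.0173). Both differences held in each fit that left out 1 library, from 0.73 to 1.09 for Ccn1 and from 0.99 to 1.31 for Ccn3. Against Ccn5 the difference of 0.70 was not past the threshold (exact permutation test, p = 0.106, adjusted p = 0.141). Without WT replicate 6 it was 1.01 (exact permutation test, p = 0.0108), the only 1 of 12 such tests under 0.05. Against Ccn4 it was -0.13 (exact permutation test, p = 0.742, adjusted p = 0.742), and it became 0.43 without the 2 libraries of high Xist (exact permutation test, p = 0.148).

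Beyond genotype the 4 tested members did not track each other from mouse to mouse in a way the tests could show. Over the 12 libraries, with each genotype centred on its mean log2 cpm, the 6 pairs had Pearson r from -0.30 to 0.35 (permutation tests, adjusted p from 0.700 to 0.716). For Ccn1 and Ccn2 r was 0.35 (permutation test, p = 0.260, adjusted p = 0.700) and Spearman rho was 0.42 (permutation test, p = 0.179, adjusted p = 0.531). Without WT replicate 1 and cmGch1 KO replicate 1, the 2 libraries farthest from the median of Ccn1, r was 0.42. Other pairs moved more when the 2 farthest libraries were left out. The r of Ccn2 and Ccn3 turned from -0.30 to 0.38 and that of Ccn1 and Ccn5 from 0.19 to -0.38. The r of Ccn1 and Ccn3 went from -0.18 to -0.48, that of Ccn2 and Ccn5 from -0.12 to -0.49 and that of Ccn3 and Ccn5 from 0.24 to 0.50, so no pair but Ccn1 and Ccn2 kept nearly the same value. WT replicate 1, where Ccn1 was at 171 cpm, had an unremarkable 56.4 cpm of Ccn2.

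The tested genes whose log2 cpm over the 12 libraries was most like each member's were then named, as a description and with no test, since they are the top of 11225. For Ccn1 these were the immediate early transcription factor gene Egr1 (Pearson r 0.92, Spearman rho 0.69), the immediate early gene Ier2 (r 0.91, rho 0.59) and Junb, which encodes an AP-1 subunit (r 0.90, rho 0.46). The likeness leaned on WT replicate 1 and cmGch1 KO replicate 1, without which r was 0.77 for Egr1, 0.41 for Ier2 and 0.35 for Junb. In WT replicate 1 Egr1 was at 172 cpm against at most 47.3 cpm in the other WT libraries, and 8 of the 18 tested genes of a list of immediate early genes had their highest value of all 12 libraries there. The scatter of Ccn1 against Ccn2 and Egr1 shows this library far to the right.

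**Figure D3:**
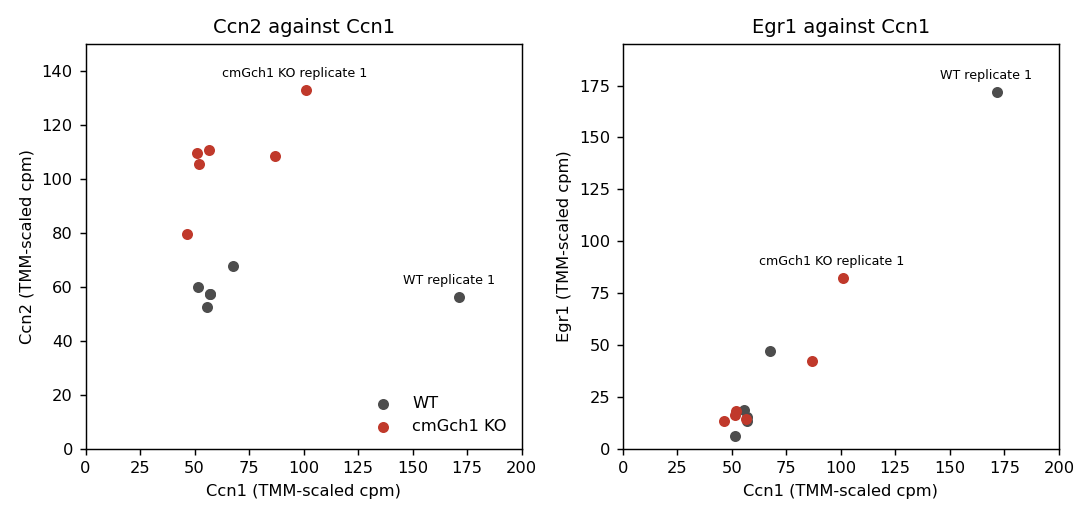
Ccn2 (left) and Egr1 (right) against Ccn1, all in TMM-scaled cpm on linear axes from 0, in 6 WT (grey) and 6 cmGch1 KO (red) libraries. WT replicate 1 has the highest Ccn1 (171 cpm) and Egr1 (172 cpm) but a Ccn2 of 56.4 cpm among the other WT libraries, and the genotypes separate along Ccn2 and not along Ccn1.

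For Ccn2 the genes most alike were Tmem106a (r 0.95, rho 0.90), Ttc27 (r 0.93, rho 0.85) and Ndrg4 (r 0.91, rho 0.80). These are correlations over both genotypes, and with each genotype centred on its mean r was 0.69 for Tmem106a, 0.67 for Ttc27 and 0.21 for Ndrg4. Without the 2 libraries farthest from the median of Ccn2, r over both genotypes stayed at 0.92, 0.90 and 0.91. Genes picked for likeness to Ccn2 over both genotypes tend to differ between the genotypes as Ccn2 does. Their genotype tests carry that choice and serve as a description. Tmem106a averaged 4.68 cpm against 6.66 cpm, WT against cmGch1 KO (edgeR's quasi-likelihood test, adjusted p = 0.0186), and Ndrg4 428 against 624 cpm (edgeR's quasi-likelihood test, adjusted p = 6.88e-04). Tmem106a missed the threshold without WT replicate 5 (adjusted p = 0.0594) or cmGch1 KO replicate 2 (adjusted p = 0.053), without both libraries of high Xist (adjusted p = 0.0753) or once sex-linked expression was a covariate (adjusted p = 0.0529). Ttc27 missed the threshold (edgeR's quasi-likelihood test, adjusted p = 0.0536), which it passed without WT replicate 6 (adjusted p = 0.0478), with library size alone (adjusted p = 0.0155), with 1 surrogate variable (adjusted p = 0.0168) and by the DESeq2 Wald test (adjusted p = 0.0026). For Ccn3 the genes most alike were Chp2, Psmd11 and Adck2 (r 0.81 to 0.82, rho 0.66 to 0.82), and for Ccn5 Tldc1, Nectin2 and Arl16 (r 0.92 to 0.95, rho 0.84 to 0.90). None of these 6 genes was called between the genotypes.

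The promoter of Ccn1 is shown as that of a known YAP and TAZ target. The RefSeq promoter table on GRCm38 held 2 of the 6 members, Ccn1 and Ccn6, and its windows end shortly after the start site. The 250 bases before the start site of Ccn1, chr3:145649986-145650235 on the minus strand, follow 5′ to 3′, with the match to the TEAD motif in capitals.
Ccn1: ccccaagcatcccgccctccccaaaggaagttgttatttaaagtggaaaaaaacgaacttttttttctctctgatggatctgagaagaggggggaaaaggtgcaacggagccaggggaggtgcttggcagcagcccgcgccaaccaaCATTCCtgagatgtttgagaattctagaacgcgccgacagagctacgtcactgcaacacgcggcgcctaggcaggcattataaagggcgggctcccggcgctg
TEAD factors are the DNA-binding partners of YAP and TAZ. Their motif GGAATG, searched on both strands, was found on the opposite strand from 103 to 98 bases before the start of Ccn1. Of all 32851 promoter windows 14.7% held it. The windows searched run past the start site and so are longer than the 250 bases printed. The SMAD motif CAGAC was found 1 time in the window of Ccn1 and 2 times in that of Ccn6, and 49.6% of all windows held it. The match of Ccn1 began 3 bases after the start site, outside the bases printed. The AP-1 motif TGACTCA, held by 5.20% of windows, and the CArG box of serum response factor, held by 1.63%, were not found in either window. A match describes letters only.

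The receptors of CCN proteins came next. Of 15 listed integrin subunits and other receptors 11 were tested, and 0 were called higher or lower by edgeR's quasi-likelihood test, while an unadjusted p under 0.05 was found for 5 higher (787 of all genes, 7.01%) and 0 lower (506 of all genes, 4.51%). The Wald test of DESeq2, which called 218 of all genes higher (1.94%) and 155 lower (1.38%), called 3 receptors higher, Itgb2 and, named after their values were seen, Itgb5 and the syndecan Sdc4, and limma on the deposited log2 values called 0. The listed receptors had a median log2 fold change of 0.14, against -0.01 over all tested genes. Itgb2, the β2 integrin subunit of leukocytes, had the smallest p of the list, averaging 5.54 ± 0.464 against 7.81 ± 1.32 cpm (SD, n = 6 each), and its log2 fold change of 0.49 missed the threshold (edgeR's quasi-likelihood test, adjusted p = 0.0661), which it passed without cmGch1 KO replicate 1 (0.53, adjusted p = 0.039) or 4 (0.54, adjusted p = 0.0421). Of 13 listed growth factors and matrix proteins that bind CCN proteins 9 were tested, with a median log2 fold change of 0.01. Among them 1 was called higher (0.677% of all genes were) and 0 lower. That gene was Tgfb2, a ligand of the transforming growth factor-β family. It ran from 5.66 to 9.59 cpm in WT and from 8.22 to 14.3 cpm in cmGch1 KO hearts, with a log2 fold change of 0.73 (standard error 0.14; edgeR's quasi-likelihood test, adjusted p = 0.0241). It kept its call in 5 of the 12 fits that left out 1 library and lost it without WT replicate 1, 3 or 4 or cmGch1 KO replicate 2, 3, 4 or 5 (log2 fold change 0.66 to 0.72; edgeR's quasi-likelihood test, adjusted p up to 0.0687). Without both libraries of high Xist it was 0.70 and not called (edgeR's quasi-likelihood test, adjusted p = 0.147).

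Upstream of Ccn1 and Ccn2, 19 of 21 listed Hippo pathway components were tested and 0 were called by edgeR's quasi-likelihood test. An unadjusted p under 0.05 was found for 1 (11.5% of all genes). DESeq2 and limma also called 0. Their median log2 fold change was -0.05, and it turned positive, as that of all genes did, when libraries were scaled by size alone. Mob1b, an activator of the LATS kinases, had the smallest p, with a log2 fold change of 0.22 (edgeR's quasi-likelihood test, adjusted p = 0.348). The coactivators and their partner, named here after their values were seen, were Yap1 at 115 and 104 cpm, Wwtr1 (TAZ) at 78.1 and 84.0 cpm and Tead1 at 194 and 186 cpm of WT and cmGch1 KO hearts, and none of these 3 was called.

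Of 20 listed YAP and TAZ targets other than the CCN genes 18 were tested and 2 were called higher (0.677% of all genes were), 0 lower, with a median log2 fold change of 0.04. At an unadjusted p under 0.05 there were 3 higher (7.01% of all genes) and 0 lower. The 2 called genes were Tgfb2 and Ankrd1, the cardiac ankyrin repeat protein of the sarcomere and nucleus. Ankrd1 ran from 911 to 1571 cpm in WT and from 2087 to 3112 cpm in cmGch1 KO hearts with no overlap. Its log2 fold change was 1.13 (standard error 0.14; edgeR's quasi-likelihood test, adjusted p = 9.80e-04), and it kept its call in each of the 12 fits that left out 1 library.

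A list of serum response factor, its cofactors and their targets had 14 tested genes, among them the regulators Srf, Myocd, Mrtfa and Mrtfb. Of these 14 genes 1 was called higher (0.677% of all genes were). This was Acta2, the smooth muscle α-actin of vessel walls and activated fibroblasts. Acta2 ran from 113 to 144 cpm in WT and from 162 to 242 cpm in cmGch1 KO hearts with no overlap. DESeq2 called 2 of this list, Acta2 and Acta1, and limma only Acta2. The log2 fold change of Acta2 was 0.66 (standard error 0.11; edgeR's quasi-likelihood test, adjusted p = 0.00672), and the median of the list was -0.01, a sign that turned with scaling by library size alone. The 2 highest values of Acta2 belonged to the libraries of high Xist, and without them it was still called. Of 13 tested genes of the transforming growth factor-β response 0 were called by edgeR's quasi-likelihood test, and limma called 0. At an unadjusted p under 0.05 there were 3 higher (7.01% of all genes), and the median log2 fold change was 0.12. Col3a1, a fibrillar collagen chain, had the smallest p of that list at 224 ± 34.4 against 303 ± 52.4 cpm (SD, n = 6 each) and a difference of 0.44 on the log2 scale (edgeR's quasi-likelihood test, adjusted p = 0.126), and DESeq2 called it alone of this list (adjusted p = 0.034).

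Of 11 tested genes for other matricellular proteins 0 were called by edgeR's quasi-likelihood test, and DESeq2 and limma called 0. There were 2 higher at an unadjusted p under 0.05 (7.01% of all genes), and the median log2 fold change was 0.05. Postn, encoding periostin of activated fibroblasts, had the smallest p at 34.5 ± 4.58 against 45.5 ± 9.23 cpm (SD, n = 6 each) and a difference of 0.40 on the log2 scale (edgeR's quasi-likelihood test, adjusted p = 0.192). Of 18 tested immediate early genes 16 had a negative log2 fold change (5984 of all 11225 genes did), with a median of -0.33. At an unadjusted p under 0.05 there were 2 lower (4.51% of all genes), Dusp1 (-0.47) and Klf2 (-0.60), named after their values were seen. Without WT replicate 1 the log2 fold change turned to 0.64 for Egr1, 0.29 for Ier2 and 0.47 for Junb. In this list 1 gene was called, upward (0.677% of all genes were). This was Myc, at 2.62 ± 0.606 and 4.90 ± 1.37 cpm (SD, n = 6 each), with a log2 fold change of 0.90 (standard error 0.19; edgeR's quasi-likelihood test, adjusted p = 0.0399). Its WT libraries ran from 2.08 to 3.47 cpm and its cmGch1 KO libraries from 3.56 to 7.25 cpm. Myc thus passed the filter of a cpm over 3 in at least 6 libraries only through the cmGch1 KO group. It kept its call without WT replicate 1 or 4 or cmGch1 KO replicate 2 or 4 and lost it in the other 8 such fits (edgeR's quasi-likelihood test, log2 fold change 0.75 to 0.94, adjusted p up to 0.105), and also without both libraries of high Xist (1.04, adjusted p = 0.0563). WT replicate 1 had the highest summed level of this list, 1083 cpm. Of 6 hypertrophy markers 2 were called higher, Ankrd1 and the natriuretic peptide gene Nppa, with a median log2 fold change of 0.93, and 4 had an unadjusted p under 0.05. The DESeq2 Wald test called 4 higher, adding Nppb and the skeletal α-actin gene Acta1, which are named after their values were seen. By edgeR's quasi-likelihood test Nppb had a log2 fold change of 1.07 (adjusted p = 0.0701) and Acta1 one of 0.78 (adjusted p = 0.118). Nppa ran from 66.7 to 263 cpm in WT and from 201 to 678 cpm in cmGch1 KO hearts, with a log2 fold change of 1.53 (standard error 0.30; edgeR's quasi-likelihood test, adjusted p = 0.024). It lost its call without WT replicate 2, 3 or 5 or cmGch1 KO replicate 2, 3 or 4 (edgeR's quasi-likelihood test, log2 fold change 1.36 to 1.52, adjusted p up to 0.0698), and without both libraries of high Xist (1.31, adjusted p = 0.157).

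**Figure D4:**
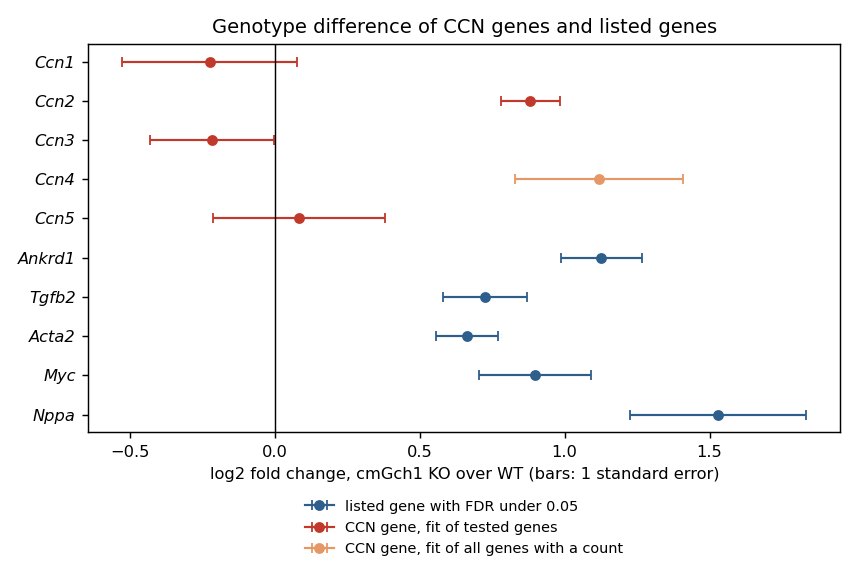
Log2 fold change of cmGch1 KO over WT (horizontal axis, bars 1 standard error) for 5 CCN genes and for the genes of the lists that were called at an FDR under 0.05. Myc passed the cpm filter only through its cmGch1 KO libraries. Ccn2 (0.88) lies among Ankrd1 (1.13), Tgfb2 (0.73), Acta2 (0.66), Myc (0.90) and Nppa (1.53), Ccn1 (-0.22), Ccn3 (-0.22) and Ccn5 (0.08) have bars that reach or nearly reach 0, and Ccn4 is drawn from the fit of all genes with a count, where it was not called.

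In bulk tissue fewer cells of a type and less RNA per cell cannot be told apart, and the cells that made each CCN transcript were not separated here. Beside the rise of Ccn2, 0 of 8 fibroblast markers were called by edgeR's quasi-likelihood test. An unadjusted p under 0.05 was found for 1, upward (7.01% of all genes). All 8 had a positive log2 fold change (5241 of all 11225 tested genes did), with a median of 0.14. Their sum was 607 to 787 cpm in WT and 650 to 860 cpm in cmGch1 KO libraries. Of 6 macrophage markers 0 were called. Each of the 6 had a higher mean and an unadjusted p under 0.05 by the same test (7.01% of all genes did). Their median log2 fold change was 0.30. Sums were 132 to 168 cpm in WT and 165 to 208 cpm in cmGch1 KO libraries, and 5 of the 6 cmGch1 KO libraries were above every WT library. Of 8 markers of smooth muscle and pericytes 1, Acta2, was called, upward (0.677% of all genes were). The median of the 8 was -0.07, which turned positive with scaling by library size alone. Their sums were 904 to 1020 and 920 to 1076 cpm. Endothelial markers had 0 of 7 called by the same test and 1 lower at an unadjusted p under 0.05 (4.51% of all genes). Their sums were 729 to 903 and 801 to 936 cpm.

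Cardiomyocyte markers had 0 of 8 called and 0 at an unadjusted p under 0.05 by edgeR's quasi-likelihood test. A negative log2 fold change was found for 7 of the 8 (5984 of all 11225 tested genes had one), with a median of -0.14. With scaling by library size alone it was found for 6 of the 8. Their summed level, 56605 to 60486 cpm in WT and 51463 to 57258 cpm in cmGch1 KO libraries, lay under that of every WT library in 5 of the 6 cmGch1 KO libraries. Of 5 atrial markers 4 were tested and only Nppa was called, upward (0.677% of all genes were). The 5 summed to 74.3 to 547 cpm in WT and 246 to 742 cpm in cmGch1 KO libraries, with Bmp10 at 0 in at least 1 library. Epicardial markers, of which 1 of 4 was tested and 0 called, summed to 3.60 to 11.9 and 3.11 to 7.72 cpm, and Upk3b, Msln and Upk1b were each at 0 in at least 1 library. DESeq2 and limma called 0 of the fibroblast, macrophage, endothelial, cardiomyocyte and epicardial markers as well. The part of any of these cell types in the level of a CCN gene was not tested.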

How the data were processed

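According to the study's methods, each n is 1 animal, RNA of the left ventricle was made into stranded dUTP paired-end libraries, and read counts came from HISAT2, Picard and featureCounts; the submitters' notes also name SAMtools and the build GRCm38. Annotation release and strand setting are not given in the sources used here. The authors deposited raw counts per Ensembl gene and, in a second table, normalized values on a log2-like scale, used only as an alternative. Every column was mapped to a sample (0 not mapped). Of 26921 identifiers 26582 (98.7%) matched GENCODE M21.

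Counts were tested with edgeR 4.0.16 in R 4.3.3, using TMM, a cpm over 3 in at least 6 libraries, glmQLFit and glmQLFTest without covariates and Benjamini-Hochberg adjustment over all 11225 tested genes at an FDR under 0.05. Standard errors are the log2 fold change over the square root of F. Exact permutation tests ran over 924 splits (210 without 2 libraries) and correlations over 100000 resamples, in scipy 1.17.1, with a prior count of 2 for log2 cpm. Alternatives were DESeq2 1.42.0 (size factors, Wald test), library size alone, other filters, a replicate block, sex-linked expression or 1 surrogate variable (sva 3.50.0) as covariate, limma 3.58.1 on the deposited log2 values, and libraries left out. On simulated data with 200 changed genes among 11225 for this comparison, 99% of those changed by 2-fold and 68% of those changed by 1.5-fold were recovered, with 5 false calls. A count of 0 allows up to 3 counts, and such limits cover counting error only, as the reads carry no molecular identifiers.

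Coding sequences were read from GENCODE M21 and aligned globally (biopython 1.88). Levels per kilobase used the union of exons. Named genes are the 6 members, Gch1, Xist and 4 Y-linked genes, in each list those called or else that with the smallest p, and for each tested member the 3 genes of highest Pearson r; others are marked. The members and lists were chosen with earlier results of these data known.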

Additional observations from a re-analysis of the deposited data

Results flagged for a closer look

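In 24 groups of 6 libraries, 2 held a single value far from the others by Dixon's criterion at 95%, where chance flags about 1 in 20 groups. Ccn1 in WT replicate 1 was at 171 cpm with the next WT library at 67.6 cpm, a gap of 0.867 of the range of the group. Tgfb2 in cmGch1 KO replicate 6 was at 8.22 cpm with the next library at 12.1 cpm, a gap of 0.644 of the range.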

How the results depend on the processing

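Ccn2 stayed called, and upward, in all 23 alternatives run. Other results moved more. Against 76 genes called higher and 50 lower, scaling by library size alone gave 116 higher (36 lower), the DESeq2 Wald test 218 and 155, sex-linked expression as a covariate 40 and 24, 1 surrogate variable 305 and 331, and leaving out both libraries of high Xist 20 and 18. Leaving out 1 library gave 45 to 116 higher and 30 to 97 lower; WT replicates 3 and 5 and cmGch1 KO replicates 1, 2 and 3 each moved a count by over 1.5 times. In the gene lists, 5 called higher became 11 with the Wald test, 3 with the sex-linked covariate, 11 with the surrogate variable, 2 without both libraries and 2 to 5 without 1 library; 0 called lower became 2 with the surrogate variable.

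With the replicate number as a block, 112 genes were called higher and 76 lower, the log2 fold change of Ccn2 was 0.87 (edgeR's quasi-likelihood test, adjusted p = 0.00192) and that of Junb turned to 0.0631. Ccn4 was then called, with 1.03 (adjusted p = 0.00243). Tmem106a was not, with 0.51 (adjusted p = 0.0517). By the study's methods each n is 1 animal, and the labels do not say whether a replicate number links a WT and a cmGch1 KO library. Correlations of same-numbered libraries, as deviations from the group means, were 0.676, -0.095, -0.078, -0.128, 0.401 and 0.509. Of the 6 WT libraries 3 matched their own number best. Whether same-numbered libraries shared handling was not tested.

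For Ccn4 the fit of all genes passed the threshold in 3 of 8 settings beside those without 1 library. These were the replicate block, the Wald test (log2 fold change 1.15) and the surrogate variable (1.11, edgeR's quasi-likelihood test, adjusted p = 0.0428). It missed the threshold with the sex-linked covariate (0.51, edgeR's quasi-likelihood test, adjusted p = 0.517) and on the deposited log2 values (0.52, limma, adjusted p = 0.263). Without 1 library it ranged from 0.87 to 1.25 and passed in 1 of 12 fits, without cmGch1 KO replicate 1 (1.25, edgeR's quasi-likelihood test, adjusted p = 0.0487). The cause was not tested. The log2 fold change ranged without 1 library from -0.39 to 0.19 for Ccn1 and from -0.10 to 0.22 for Ccn5, and the difference in cpm from -18.0 to 8.01 and from -0.343 to 0.873. For Ccn6 the difference was 0.0752 cpm without both libraries of high Xist (exact permutation test, p = 0.0429) and 0.0512 to 0.111 cpm without 1 library. The effect of Ccn2 minus that of Ccn4 ranged from -0.34 to 0.12, and minus that of Ccn5 from 0.55 to 1.01, without 1 library; it was 0.43 for Ccn4 without both. Uncentred, r of Ccn2 and Ccn5 was 0.10 in place of -0.12. With the longest transcript as length, Ccn2 in WT was at 23.5 cpm per kb.

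Of the genes named for likeness, signs turned as follows. Library size alone gave 0.0399 for Chp2, 0.0535 for Psmd11 and 0.0498 for Tldc1. Without 1 library, Egr1 ranged from -1.12 to 0.64, Ier2 from -0.65 to 0.29, Junb from -0.38 to 0.47, Chp2 from -0.111 to 0.0375, Adck2 from -0.0370 to 0.110, Tldc1 from -0.107 to 0.0215 and Nectin2 from -0.0652 to 0.0737. The sex-linked covariate gave 0.0469 for Junb and -0.0668 for Adck2, the deposited log2 values 0.0365 for Junb, and leaving out both libraries 0.0065 for Junb and -0.0722 for Adck2. None of these passed the threshold. The comparison of Ccn2 with other members, its alternatives and the alternatives on Ccn4 and Ccn6 were chosen after seeing the data. Depth limits Ccn6, and in part Ccn4.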
